A study of Equus caballus with 22 samples.

Results

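CHGA encodes chromogranin A, an acidic protein that is packed with peptide hormones and amines into the dense-core secretory granules of endocrine and neuroendocrine cells. It takes part in forming these granules and is cut into smaller signalling peptides, among them vasostatin, pancreastatin and catestatin, and its presence in a tissue section is used to mark neuroendocrine cells. The lining of the uterus, the endometrium, consists of a surface and gland epithelium that secretes into the lumen, over a stroma with vessels and immune cells. In the mare the early embryo moves freely through the uterine lumen, and during this time the loss of the corpus luteum is prevented.

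CHGA is 1 of 675 genes that could be named on the array. It was measured by the probes that carry the accession of its horse RefSeq transcript, NM_001081814, which are 5 of 43603, and all 5 passed the filter on dim probes. The samples were biopsies of warmblood mares: day 12 pregnant (6 mares, taken once the embryo had been recovered), day 12 non-pregnant control (the same 6 mares), day 8 pregnant (5 mares, also after embryo recovery) and day 8 non-pregnant control (the same 5 mares). Whether mares with the same number at the 2 days were the same animals is not stated in the labels, and neither is whether the uterus of control mares had been flushed. The gene was singled out because its values in these same contrasts were known, so its levels and changes are given as a description without a test.

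The 75th percentile of the spot intensity ranged from 577 to 1863 units over the 22 arrays, and 74.2% to 92.9% of spots were well above background, the scanner software's call that a spot is brighter than its surroundings. Both arrays of every mare lay on 1 slide, and no slide or scan day held arrays of both days. The changes of mare 3 at day 12 correlated at -0.15 over 31038 probes with the mean change of the other 5 mares, so values are also given without it. This correlation was 0.10 in mare 5 and 0.33 to 0.60 in mares 1, 2, 4 and 6 of day 12. At day 8 this correlation was low in every mare, between -0.13 in mare 4 and 0.26 in mare 2, with -0.03 in mare 1. The epithelial gene ESRP1 and the stromal genes DCN and LUM were well above background on every array, while most defining markers of endometrial cell types carried no symbol here. In whole biopsies, fewer cells of a type and less RNA per cell cannot be told apart.

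CHGA was higher in the pregnant than in the control sample of 6 of 6 mares at day 12, on average 6.86-fold, and lower in 4 of 5 mares at day 8. A level is the log2 intensity minus that of the array's 75th percentile, averaged over the 5 probes. At day 12 the pregnant samples stood at -0.87, -2.72, 0.12, -1.68, 0.32 and -3.24 in mares 1 to 6, against -2.53, -4.98, -4.79, -5.45, 0.06 and -7.06 in the control samples of the same mares. The groups overlapped: the control sample of mare 5 was among the brightest of all, and that of mare 1 lay above the pregnant samples of mares 2 and 6. At day 8 the pregnant samples stood at -6.08, -6.28, -6.73, -5.68 and -6.55 in mares 1, 2, 4, 5 and 6, against -4.69, -4.38, -5.81, -5.94 and -6.23 in their control samples. These groups overlapped too, and every day 8 array lay below every pregnant array of day 12.

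**Figure D1:**
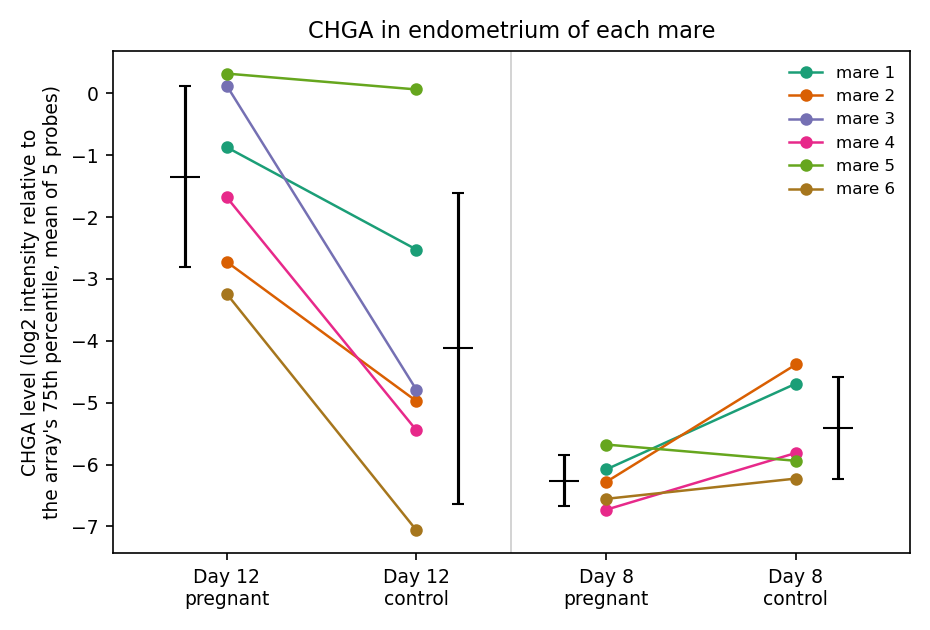
CHGA level of each array (vertical axis, log2 intensity relative to the array's 75th percentile, mean of 5 probes) in the 4 groups, with a line joining the pregnant and the control sample of a mare. Bars beside the points are mean ± SD. All 6 lines fall towards the control side at day 12, nearly flat only in mare 5, and the highest array of day 8 is at -4.38.

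The mean level was -1.35 ± 1.47 in pregnant and -4.12 ± 2.52 in control samples at day 12 (SD, n = 6 each), and -6.26 ± 0.41 in pregnant and -5.41 ± 0.82 in control samples at day 8 (SD, n = 5 each). Day 12 pregnant samples were thus highest, then day 12 control, day 8 control and day 8 pregnant samples. Neighbours in this order overlapped in each case, whereas the lowest pregnant array of day 12, at -3.24, was above the highest array of day 8, at -4.38. The spread was widest in the control samples of day 12, which covered 7.12 log2 units against 3.56 in the pregnant samples of that day.

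Within mares, the change at day 12 was 1.65, 2.25, 4.91, 3.77, 0.26 and 3.82 log2 in mares 1 to 6, with a mean of 2.78 ± 1.70 (SD, n = 6). The mean was larger than the spread between mares, which ranged from hardly any difference in mare 5 to 30.2-fold in mare 3. Mare 3, whose changes over all probes ran apart from those of the other mares, had the highest change of CHGA, and without it the mean was 2.35. Without mare 5 it was 3.28. The control array of mare 6 had no CHGA probe well above background, so the size of its change is uncertain. With CHGA on that array set to the dimmest spot called well above background there, taken as its bound, the change was 10.2-fold. The mean over the mares then became 2.70. This bound is a substitute value and not a strict minimum, since the authors' deposited value table gave a change of 2.24 log2 in this mare.

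The change at day 8 was -1.39, -1.90, -0.92, 0.26 and -0.33 log2 in mares 1, 2, 4, 5 and 6, with a mean of -0.85 ± 0.85 (SD, n = 5). The mean was about as large as the spread between mares. In fold terms, the pregnant sample was 2.61, 3.73 and 1.89 times dimmer than the control sample in mares 1, 2 and 4. The mean change of the 2 days differed by 3.63 ± 0.79 log2 (SE, n = 6 and 5 mares, the days taken as independent). It was 3.20 without mare 3.

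Signals differed greatly in brightness between the days. CHGA had mean intensities of 78.6 to 1756 units in pregnant and 4.89 to 1607 units in control samples of day 12. At day 8 they were 9.36 to 21.2 units in pregnant and 11.4 to 57.3 units in control samples, which is 1.51 to 3.33 times and 2.36 to 7.94 times the dimmest spot called well above background on the same array. All 25 CHGA spots of the pregnant and all 25 of the control arrays of day 8 were called well above background. At day 12 this held for 30 of 30 spots on pregnant arrays, against 25 of 30 on control arrays.

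The 5 probes gave nearly the same change at day 12 and not at day 8. Over the 22 arrays they correlated with each other at 0.969 to 0.996, as probes of 1 transcript measured in the same samples. At day 12 the mean change by probe lay between 2.71 and 2.83 log2, and within a mare the probes differed by 0.04 to 0.55. At day 8 the mean change by probe lay between -1.30 and -0.41, and within mare 5 the probes differed by 3.11 and within mare 6 by 1.84. In mares 1, 2 and 4 of day 8, where they differed by 0.44 or less, all 5 probes were lower in the pregnant sample.

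**Figure D2:**
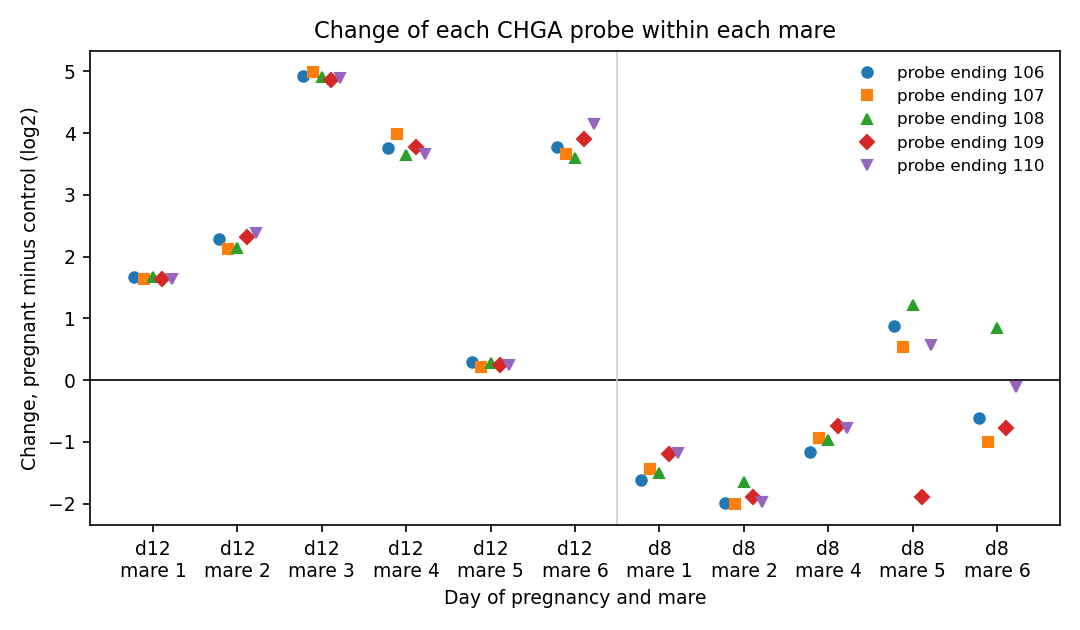
Change of each of the 5 CHGA probes (vertical axis, pregnant minus control, log2) within each mare, with day 12 on the left and day 8 on the right. The symbols of a mare nearly coincide at day 12, and at day 8 they spread over 3.11 log2 units in mare 5, where 1 probe is below 0 and 4 are above.

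In mare 5 at day 8, 1 probe ran against the other 4, and the change was 0.26 log2 by the mean level of the 5 probes and 0.56 by their median level. Probe A_69_P000109 had 14.9 units in the pregnant and 64.7 units in the control sample of this mare, a change of -1.89 log2. The other 4 probes had 19.3 to 33.4 units in the pregnant and 13.5 to 16.9 units in the control sample, changes of 0.54 to 1.22. The bright spot of the control array carried no outlier flag. Probe A_69_P000109, the one with the highest mean signal, was therefore lower in 5 of 5 mares, whereas the other 4 probes were lower in 3 or 4 of 5. In mare 6, A_69_P000108 was higher by 0.84 log2 and the other 4 probes were lower.

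The size of the day 8 difference followed the choice of signal. It was -1.30 log2 by the probe with the highest mean signal and -0.78 by the median of the 5 probes, an alternative chosen after seeing the data. It was -0.36 in the authors' deposited value table, where mares 5 and 6 stood at -0.01 and 0.02, and -0.30 with normexp, a model-based background correction. At day 12 the same choices gave 2.79, 2.78, 2.22 and 1.80. The value of 1.80 was obtained with the median of all probes at 0.33. Normexp was run with an offset of 50 units added to every spot, which makes log2 differences between dim spots smaller. Most CHGA intensities of day 8 were below this offset. How much of the smaller normexp values comes from the offset was not tested.

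CHGA stood far out among the probes of the array in its day 12 change and in its spread, the values by which it had been chosen. Of 38461 probes, 19 to 28 had a higher mean change at day 12 than the single CHGA probes, and 48 to 59 had a higher SD over the 22 arrays. The median SD over all probes was 0.45, against 2.38 to 2.47 for CHGA. Of 38103 probes with a value for every mare, 2.24% were higher in all 6 mares at day 12, as all 5 CHGA probes were. Of the same probes, 28, or 0.0735%, were higher in all 6 mares at day 12 and lower in all 5 at day 8, and 1 of the 5 CHGA probes was among them.

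By slide, the mean change at day 12 was 3.28 for mares 1 and 3, 2.25 for mare 2, 3.79 for mares 4 and 6, and 0.26 for mare 5. By scan day it was 3.28, 1.25 and 3.79. At day 8 the slide means were -1.64 for mares 1 and 2, -0.92 for mare 4 and -0.03 for mares 5 and 6, and the means of the 2 scan days were -1.64 and -0.33. The slide means were thus above 0 on all 4 slides of day 12 and below 0 on all 3 slides of day 8. The last of these was close to 0 and joins mare 5 at 0.26 with mare 6 at -0.33. By the median level of the probes these mares were at 0.56 and -0.37, and in the authors' table at -0.01 and 0.02. The sign of this slide mean therefore depends on the choice of signal.

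Between the days, pregnant samples stood 4.92 ± 0.63 log2 higher at day 12 than at day 8 (SE, n = 6 and 5), with no overlap. Control samples stood 1.29 ± 1.09 higher at day 12 (SE, n = 6 and 5) and overlapped, and without mare 5 the difference was 0.32. These SE take the mares of the days as different animals, which the labels do not state. Each day had its own slides, its own scan days and its own software version, so that day and batch cannot be told apart.

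Other genes of the granule machinery were few among the named probes. Of 72 genes in lists of granins, prohormone processing enzymes, peptide hormones with amine enzymes, vesicle docking proteins and neuroendocrine markers, 10 had a probe with a symbol and 8 passed the filter. No other granin was among them. CALCB and DBH were on the array but not tested, being well above background on 0 and 1 of 22 arrays.

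By the brightest probe of each gene, none of the 8 tested genes passed with pregnancy at day 12 in limma's test with Benjamini-Hochberg adjustment, and 0 had an unadjusted p under 0.05. Over all 38461 probes 0.265% passed, 0.211% higher and 0.0546% lower, and 4797 had an unadjusted p under 0.05. The median change of the 8 genes was 0.05 log2, with 5 above and 3 below 0, against -0.02 over all probes. At day 8 again 0 of 8 passed and 0 had an unadjusted p under 0.05. Of all 38457 probes, 0% passed and 2243 had an unadjusted p under 0.05. The median of the 8 genes was -0.02, against -0.01 over all probes. For the difference between the 2 changes it was 0 of 8 at either level. Of all 38457 probes, 0.0104% passed, 0.0078% higher and 0.0026% lower, and 4044 had an unadjusted p under 0.05. With 8 genes, these counts of 0 are not read as a result about the genes.

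**Figure D3:**
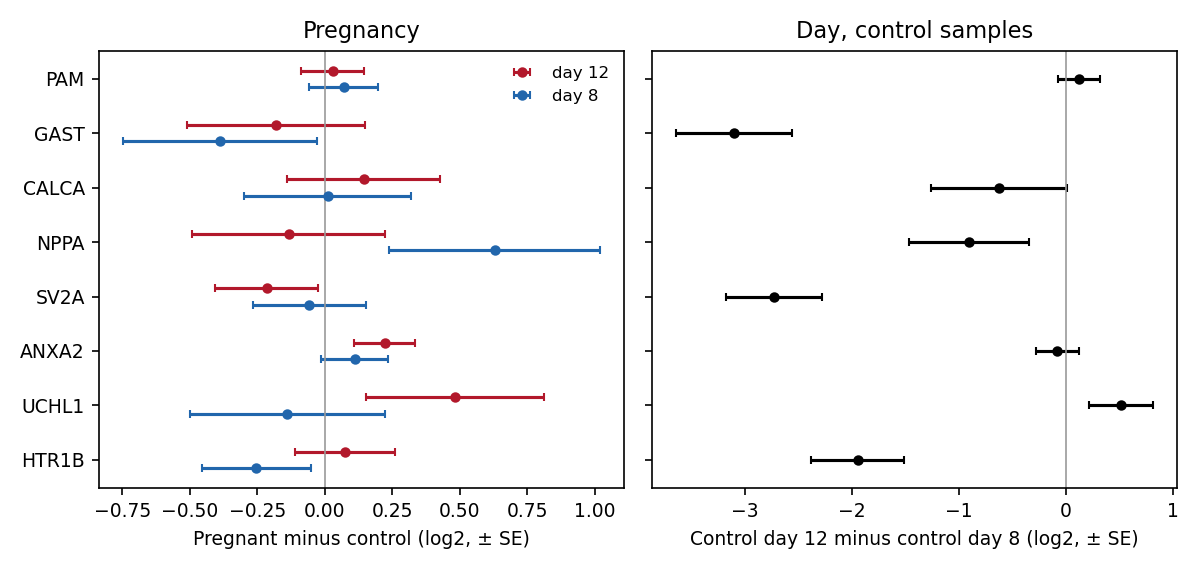
Fitted change ± SE of the 8 tested genes of the granule and neuroendocrine lists, for pregnant minus control at each day (left) and for control day 12 minus control day 8 (right), in log2 units on different scales. The pregnancy changes lie between -0.39 and 0.63, and GAST, SV2A and HTR1B stand apart on the right at -3.10, -2.73 and -1.94.

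Among the enzymes, PAM, which amidates peptide hormones in the granule, was at 0.03 ± 0.12 log2 at day 12 and 0.07 ± 0.13 at day 8 (SE). UCHL1, a ubiquitin hydrolase used as a neuroendocrine marker, was at 0.48 ± 0.33 at day 12 (adjusted p = 0.590) and -0.14 ± 0.36 at day 8. Its 5 probes lay between 0.48 and 0.60 at day 12. ANXA2, an annexin with a part in vesicle docking, was at 0.22 ± 0.11 at day 12 and 0.11 ± 0.12 at day 8. NPPA, the precursor of atrial natriuretic peptide, was at -0.13 ± 0.36 at day 12 and 0.63 ± 0.39 at day 8. The day 8 value rests on mare 1, at 2.91, against -0.27 to 0.38 in the other mares, and the NPPA signal was well above background on 1 pregnant and 2 control arrays of day 12.

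CALCA, which encodes calcitonin and its related peptide, has probes of 2 accessions here. The probe standing for it by signal was at 0.14 ± 0.28 log2 at day 12 and 0.01 ± 0.31 at day 8. The 5 probes of the other accession were well above background on 2 to 5 arrays each, with changes of 1.13 to 2.23 at day 12 and -1.41 to -0.24 at day 8. The mean changes were above 0 at day 12 and below 0 at day 8, as for CHGA, at signals mostly not well above background. Of these 5, A_69_P000575 entered the test, with a change of 2.23 at day 12 (limma, adjusted p = 0.0390). It was well above background on 5 of 22 arrays, the fewest the filter admits, so the size of this change is measured mostly against arrays not above background. The rest of these probes, well above background on 2 to 4 arrays, were not tested. The p therefore depends on which probe the filter admitted, and no conclusion is drawn from it.

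Between the control samples of the 2 days, 3 of the 8 genes fell at day 12 and 0 rose, where 7.09% of 38460 probes passed, 4.62% lower and 2.47% higher. The list median was -0.77 log2, against -0.01 over all probes. The lists were chosen with earlier results of these data known, and day and batch cannot be told apart. The count and the p-values of these genes are therefore a description. GAST, the gene of the stomach hormone gastrin, was at 1.31 to 4.07 in control samples of day 12 (median 2.94, n = 6), against 4.92 to 7.11 at day 8 (median 5.69, n = 5), with no overlap. It differed by -3.10 ± 0.54 (SE, adjusted p = 0.0109). SV2A, a glycoprotein of synaptic and granule vesicles, averaged 2.62 ± 0.86 (SD, n = 6; highest 3.52), against 5.35 ± 0.77 (SD, n = 5; lowest 4.80), and differed by -2.73 ± 0.45 (adjusted p = 0.00925). HTR1B, a serotonin receptor, was at -4.32 to -2.88 (median -3.51), against -2.70 to 0.11 (median -1.93), and differed by -1.94 ± 0.43 (adjusted p = 0.0265).

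GAST and SV2A passed in each of the 6 fits that left out 1 mare number and in each of 7 other settings, and HTR1B in 3 and 6 of these. With slide as a random block (arrays of a slide allowed to deviate together), HTR1B had an adjusted p = 0.0701, within a range of 0.0143 to 0.0863 over its alternatives. Another probe of ANXA2 rose by 0.90 between control samples (adjusted p = 0.0186), while the probe standing for the gene was at -0.08. The lower day 12 levels of these 3 genes are opposite in sign to CHGA, whose control mean was 1.29 ± 1.09 higher at day 12 (SE). For CHGA the control groups overlapped and the difference was 0.32 without mare 5, so its direction is not settled. These 3 genes changed little with pregnancy. With pregnancy at day 12 they were at -0.18 ± 0.33 for GAST, -0.21 ± 0.19 for SV2A and 0.08 ± 0.18 for HTR1B (SE), each higher in 3 of 6 mares, and none passed.

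**Figure D4:**
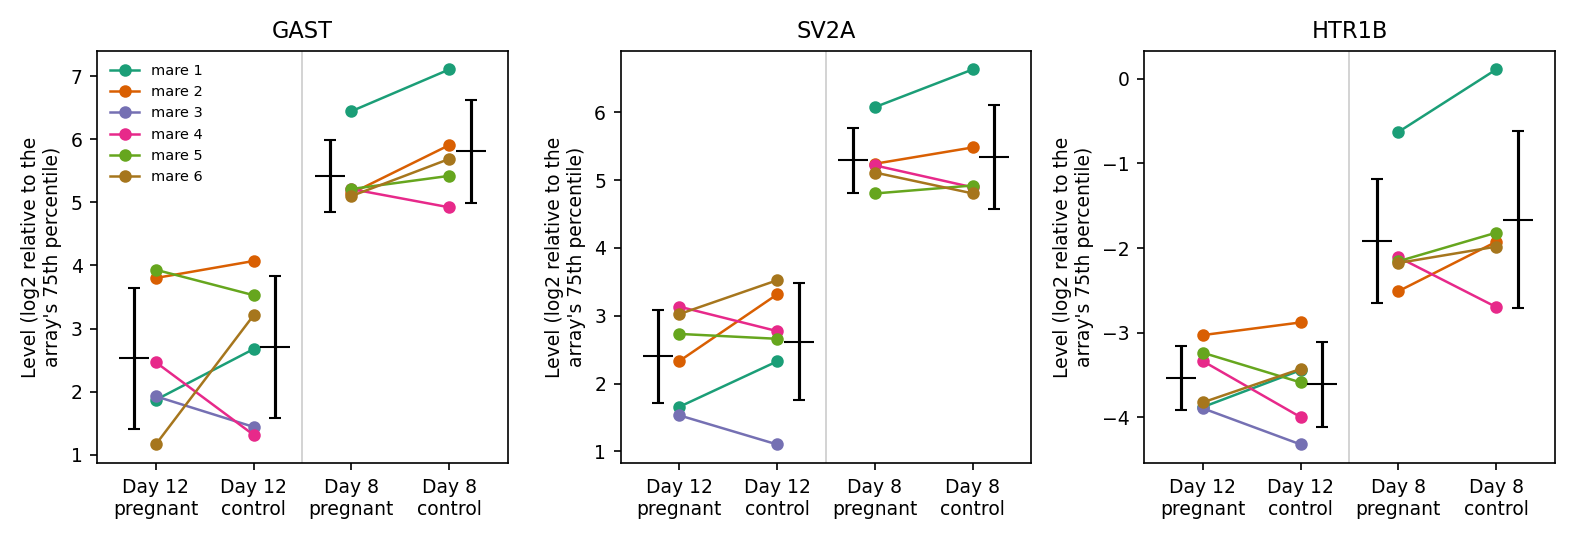
Levels of GAST, SV2A and HTR1B on each array (vertical axes, log2 relative to the array's 75th percentile, each gene on its own scale), with lines joining the samples of a mare and bars for mean ± SD. All day 12 arrays of each gene lie below all its day 8 arrays, and the lines run both ways within a day.

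Markers of other cell types gave no passing gene with pregnancy. Of 46 listed markers of epithelium, stroma, muscle, vessels, blood cells and conceptus, 15 were tested. At day 12, 0 passed in limma's test and 4 had an unadjusted p under 0.05, as did 4797 of all 38461 probes: the smooth muscle gene TAGLN at 0.90 ± 0.23 log2 (SE), the endothelial gene PECAM1 at 0.44 ± 0.16, the monocyte gene CD14 at 0.51 ± 0.16 and the platelet integrin gene ITGA2B at -0.29 ± 0.08. At day 8, 0 passed and 1 had an unadjusted p under 0.05, as did 2243 of all 38457 probes, namely CGA, the shared subunit of pituitary and chorionic glycoprotein hormones, at -0.63 ± 0.25. The other 4 probes of CGA were between -0.20 and -0.09. Between control samples of the 2 days, 0 of the 15 passed, where 7.09% of all probes did, and 6 had an unadjusted p under 0.05, as did 10143 of all 38460 probes.

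The summed linear level of ESRP1 and ESR1, listed for epithelium and glands, was 28.4 to 39.7 in pregnant and 29.0 to 73.4 in control samples of day 12. At day 8 it was 44.5 to 80.6 in pregnant and 52.6 to 71.4 in control samples. ESR1 makes up most of this sum, with a mean level of 5.06 against 2.85 for ESRP1 in control samples of day 12. Between control samples of the 2 days the ESR1 probe used here was at -0.68 log2. The other ESR1 probes were between 0.05 and 0.19, and ESRP1 was at -0.05. For the stromal genes DCN and LUM the sums were 12.7 to 22.04 in pregnant and 13.9 to 19.2 in control samples of day 12, and 21.1 to 27.8 in pregnant and 15.5 to 31.0 in control samples of day 8. All these ranges overlapped between pregnant and control samples of a day. The 4 macrophage genes summed to 9.42 to 12.3 in pregnant and 6.94 to 12.0 in control samples of day 12. TAGLN ran from 0.37 to 0.79 in pregnant and 0.14 to 0.47 in control samples of that day. The part of these differences in the CHGA values was not tested. TAGLN was higher in 6 of 6 mares at day 12. The conceptus genes CGA and PAG together summed to 0.04 to 0.08 in pregnant and 0.03 to 0.07 in control samples of day 12, and to 0.03 to 0.06 in pregnant and 0.05 to 0.09 in control samples of day 8.

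The genes whose change was most like that of CHGA were sought over 11 pairs, 1 per mare and day. Mares of the 2 days may be the same animals, so these pairs may not be independent. The search covered 608 other named genes, over which the median Pearson r was 0.06. The r below are extremes picked from many, all points come from the same arrays and 2 days, and they are given without a p. The growth factor gene TGFB1 had r = 0.81 (Spearman's rho = 0.72, n = 11), followed by the clock transcription factor gene ARNTL (0.79), the prostaglandin synthase gene PTGS2 (0.78), the platelet and endothelial selectin gene SELP (0.77), the DNA sensor gene TLR9 (0.77) and the export transporter gene ABCC1 (0.76). Within the 6 mares of day 12 the r of these genes were 0.71, 0.74, 0.53, 0.67, 0.84 and 0.37. Within the 5 mares of day 8 they were 0.16, -0.74, 0.36, -0.56, 0.43 and -0.17, below 0 for ARNTL, SELP and ABCC1. With 5 mares, and CHGA probes that disagreed in mares 5 and 6, no direction is read from these day 8 values. Without mares 3 and 6 of day 12, farthest from the median CHGA change as measured, the r over the remaining pairs lay between 0.73 and 0.88. The change of mare 6 was taken against a control array on which CHGA was not well above background, and its bound of 3.34 log2 is below the 3.77 of mare 4.

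Their changes were small beside that of CHGA. TGFB1 changed by 0.17, 0.42, 0.89, 0.46, -0.10 and -0.01 log2 in mares 1 to 6 at day 12, highest in mare 3 as for CHGA and at or below 0 in mares 5 and 6. PTGS2 was higher in 6 of 6 mares at day 12 by 0.04 to 0.54 and lower in 5 of 5 at day 8 by -0.84 to -0.09, and its pregnancy change averaged 0.27 ± 0.11 and -0.37 ± 0.12 (SE). Of these 6 genes ABCC1 alone passed at day 12, at 0.68 ± 0.12 (SE, limma, adjusted p = 0.0474), where 0.265% of all probes passed. The 6 genes were picked by their changes in these same pairs, so this p is a description.

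In the opposite direction stood BRK1, a subunit of the WAVE complex that drives actin branching. It had r = -0.93 over the 11 pairs (rho = -0.93), -0.89 within day 12 and -0.47 within day 8. Its change was between -0.34 and 0.04 log2 at day 12 and between 0.04 and 0.12 at day 8, a far narrower range than that of CHGA. It was followed by the signalosome subunit gene COPS9 (r = -0.79), the ubiquitin ligase adaptor gene SPOP (-0.78) and the purine synthesis gene PPAT (-0.78). Within day 12 the r of COPS9, SPOP and PPAT were weaker, at -0.25, -0.58 and -0.22, and within day 8 they were -0.35, -0.31 and -0.91. None of these 4 passed at day 12, with adjusted p between 0.0777 and 0.407.

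**Figure D5:**
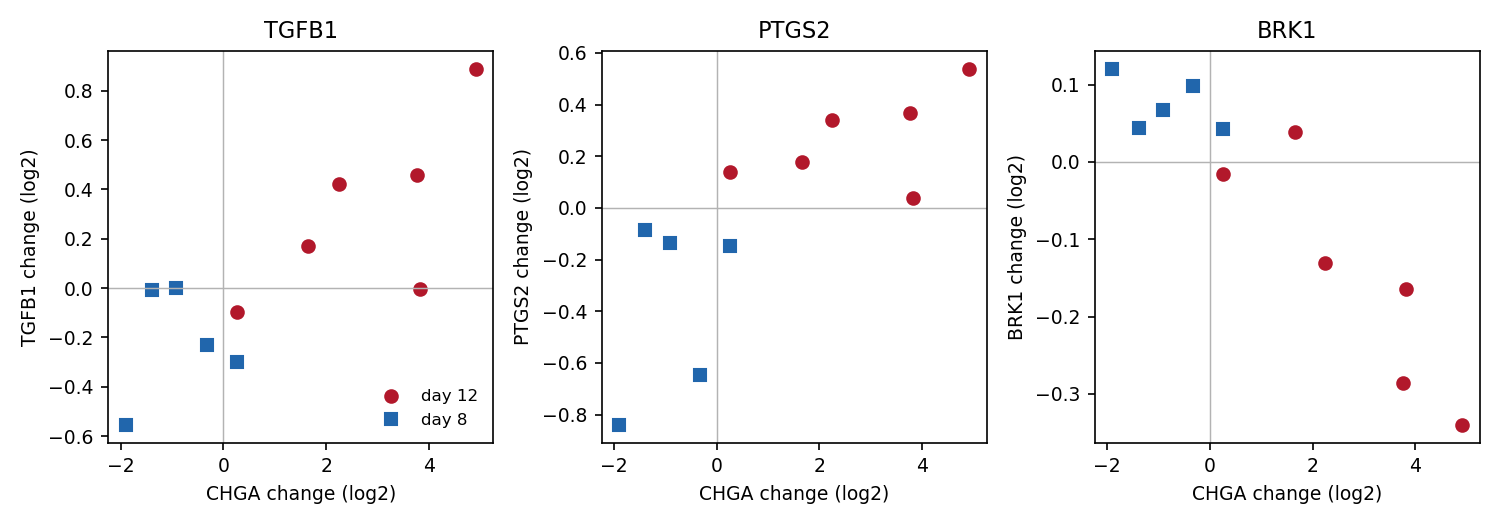
Change of TGFB1, PTGS2 and BRK1 (vertical axes, pregnant minus control, log2) against the change of CHGA (horizontal axis, log2) in the same mare, with day 12 as circles and day 8 as squares. TGFB1 (r = 0.81) and PTGS2 (r = 0.78) lie higher and BRK1 (r = -0.93) lower towards the right, on vertical scales much narrower than that of CHGA.

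By level over the 22 arrays, the nearest named genes were RBP4, a retinol carrier secreted into uterine fluid (r = 0.89, rho = 0.83), the lysosomal lipid activator gene GM2A (0.82), TAB3 (0.81), the RNA-binding protein gene QKI (0.78) and the beta-defensin gene DEFB4B (0.78). These correlations contain the difference between days, which slides and software share. RBP4 averaged 4.01 in pregnant and 3.42 in control samples of day 12, against 1.48 in pregnant and 1.54 in control samples of day 8. GM2A rose with pregnancy at day 12 by 2.10 ± 0.22 (SE, adjusted p = 0.00270), higher in 6 of 6 mares, although its changes within day 12 correlated with those of CHGA at -0.54. Among probes without a symbol, ENSECAT00000021432 (r = 0.93) and CX601554 (0.92) had the change most like CHGA of 37276, and they changed by 0.46 and 0.22 log2 at day 12. At the opposite end stood A_69_P118161 (r = -0.97), which changed by -2.26 at day 12 (limma, adjusted p = 0.0593), and ENSECAT00000025583 (r = -0.97), which changed by -0.37.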

How the data were processed

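Endometrial RNA was labelled with Cy3 and hybridised to Agilent horse arrays, 1 array per sample, per the labels' protocols. The deposited spot intensity values come from Agilent Feature Extraction, for which the submitters' processing notes name version 10.5.1.1. The file headers name 10.5.1.1 for day 12 and 10.7.3.1 for day 8. The processed intensity is background-subtracted and detrended, with no scaling between arrays, per the file headers. The authors' deposited value table holds values read as log2, with a centring not given in the sources used here; it served as an alternative only.

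Each array's 75th percentile over non-control spots was subtracted from its processed intensities on the log2 scale. Spots marked as non-uniform outliers (3 to 152 on an array) were dropped before the spots of a probe were averaged. No CHGA spot was left out. Probes well above background on at least 5 of 22 arrays were tested (38461 of 43603). Of the probes, 1394 carry 1 symbol (675 genes) by RefSeq accession without version in the RefSeq gene table of horse assembly TB-T2T, 1 carries several and 42208 none. Each gene is represented by whichever of its probes was brightest on average, and CHGA by the mean of its 5 probes. No coordinates are printed, since the builds differ.

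Two-sided tests used lmFit and eBayes of limma 3.58.1 (R 4.3.3) over all 22 arrays, in which every mare of a day was a fixed block. Control samples were compared without covariates. Passing means an adjusted p (Benjamini-Hochberg) under 0.05. The script was tested on simulated data. The labels pair the samples by mare. Deviations from group means of arrays from the same mare correlated at 0.307 to 0.744 at day 12 and 0.288 to 0.730 at day 8. The number of arrays limits the precision.

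CHGA, the gene lists and the rule for named genes (all measured list members, and the genes most and least like CHGA by r of change or level) were chosen with earlier results of these data known. The normexp alternative used the median spot signal, because the scanner files hold no mean signal, and added an offset of 50 units to every spot. Other alternatives were quantile normalisation, the authors' table, the filter, outlier flags, slide as the block, no mare block, single CHGA probes and leaving out each mare number.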

Additional observations from a re-analysis of the deposited data

Results flagged for a closer look

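For CHGA probe A_69_P000109 every mare was higher at day 12 and every mare lower at day 8. The difference between the mean changes was 4.09 log2 and was not tested. In mare 5 at day 8 the sign rests on 1 control spot of 64.7 units, against 13.5 to 16.9 units for the other 4 probes. The changes of those 4 probes in this mare were 0.54 to 1.22. For PTGS2 every mare was higher at day 12 and lower at day 8, a difference of 0.64 (limma, adjusted p = 0.258). For COPS9 every mare was lower at day 12 and higher at day 8, a difference of -0.73 (limma, adjusted p = 0.151).

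Of 52 sets of levels or changes examined, 3 held a sample far from the others, where chance alone gives about 1 in 20. The change of CALCA at day 8 was -0.40 in mare 6, against 0.06 to 0.19 in the other mares. The change of NPPA at day 8 was 2.91 in mare 1, against -0.27 to 0.38. The change of SELP at day 12 was -0.22 in mare 5, against 0.38 to 0.62.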

How the results depend on the processing

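The CHGA change kept its sign at both days in all 13 alternatives run, of which keeping outlier spots could not alter it (no CHGA spot was marked), nor could leaving out mare 3 at day 8, which has no such mare. At day 12 it was 1.80 to 2.79 over 7 settings and 2.35 to 3.28 without 1 mare number. At day 8 it was -1.30 to -0.30, and -1.13 to -0.59 without 1 mare number. The difference of the changes was 2.10 with normexp and 3.20 to 4.41 without 1 mare number. The pregnant samples differed between days by 2.97 with normexp and 3.56 in the authors' value table, against 4.92, and by 4.62 to 5.22 without 1 mare number. The control samples differed by 0.32 to 1.71 without 1 mare number, lowest without mare 5. The causes were not tested.

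Of all probes, 102 passed at day 12 (81 higher, 21 lower). It was 13 with normexp (13 higher, 0 lower), where the median over all probes was 0.33, 303 in the authors' table, 218 with the filter on all 22 arrays, and 41 with no replicate block. It was 22 to 977 without 1 mare number, with 22 without mare 1, 31 without mare 2, 977 without mare 3, 47 without mare 4 and 28 without mare 6. At day 8 it was 0 throughout. For the difference, 4 passed, against 0 with quantile normalisation, in the authors' table, with the filter on all arrays and with no replicate block, 2 with no filter or with slide as the block, and 0 to 33 without 1 mare number, highest without mare 3. Between control samples 2727 passed (950 higher, 1777 lower), 1630 with normexp, 4504 with quantile normalisation, 282 in the authors' table (11 higher, 271 lower), 772 with slide as a random block, and 347 to 2046 without 1 mare number, of which 1112 without mare 1, 1775 without mare 3, 347 without mare 4, 450 without mare 5 and 621 without mare 6. The tested granule genes passing stayed at 0 with pregnancy at both days and for the difference, also without the mare block, and at 2 or 3 between control samples. At day 8 the CHGA signal, 1.51 to 7.94 times the dimmest spot called well above background, limits the precision.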
